A study of Homo sapiens with 4 samples.

Results

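The miRNAs described here were the 4 mature 5p forms that arise from genes within the HOX clusters, hsa-miR-10a-5p, hsa-miR-10b-5p, hsa-miR-196a-5p and hsa-miR-196b-5p, written without the species prefix from here on. They were chosen by name from a table of 843 miRNA names, and all 4 names were in it. The table came from miRNA-seq of RNA pull-down material in which streptavidin beads coated with a biotinylated RNA probe took up RNA from a cell lysate. Both cell types were established human gastric cancer lines, HGC27 and AGS, and in all groups the FN1 3′-UTR, the untranslated tail of the fibronectin mRNA, was stably overexpressed from a lentivirus. HGC27 cells were grown in RPMI-1640 and AGS cells in DMEM/F12. Each line was probed with a negative RNA probe and with a positive RNA probe to the FN1 3′-UTR, which gave 4 groups of 1 library each. The study's methods describe beads loaded with antisense RNA, and the sample labels describe beads loaded with a transcript or with its antisense, but neither says which of these was called positive and which negative, so no difference below is assigned to a strand. Without replicates, every Fisher's exact test below compared 2 libraries and not the conditions, and every interval covers counting error only.

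HOX genes encode transcription factors that set the identity of body segments, and they lie in clusters in which gene order follows the order of expression along the body axis. The genes for miR-10 and miR-196 sit within these clusters, and the miRNAs in turn repress mRNAs, HOX mRNAs among them, that pair with the seed near the miRNA 5′ end. In tumours, miR-10b is known for its link to invasion and metastasis. miR-196 is known for its targeting of HOXB8.

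The mature sequences are shown because paralogues of these families share a seed and differ by a single base, so their counts are separated by that base alone. Seeds, bases 2 to 8 counted from the 5′ end, are in capitals.
miR-10a-5p: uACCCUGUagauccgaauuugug
miR-10b-5p: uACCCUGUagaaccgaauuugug
miR-196a-5p: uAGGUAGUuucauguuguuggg
miR-196b-5p: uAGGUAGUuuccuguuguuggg
With positions counted from 1 at the 5′ end, miR-10a-5p and miR-10b-5p differed by U12A over 23 bases, and miR-196a-5p and miR-196b-5p by A12C over 22 bases. The table sequences of miR-10a-5p, miR-196a-5p and miR-196b-5p were the same as the RefSeq mature sequences.

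The table also listed, under names of miRNAs predicted by the authors, a form of each miR-10 sequence that began 1 base later at the 5′ end and ended at the same base. Their names placed the miR-10a form on chromosome 17 and the miR-10b form on chromosome 2. They are shown because the later start moved the seed by 1 base, so that they do not share the seed of the annotated miR-10.
Shortened miR-10a: aCCCUGUAgauccgaauuugug
Shortened miR-10b: aCCCUGUAgaaccgaauuugug
These 2 shortened entries differed from each other by U11A. No predicted entry overlapped miR-196a-5p or miR-196b-5p by at least 18 bases. How tags were divided between an annotated miRNA and its shortened entry was not stated in the sources used here.

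In GRCh38.p14, with RefSeq positions and GENCODE release 29 gene models, each hairpin overlapped a HOX gene. MIR10A lay in the HOXB cluster at chr17:48579838-48579947 on the minus strand, within an intron of HOXB3 and an exon of a HOXB4 transcript, and its mature 5p form at chr17:48579904-48579926. MIR10B lay in the HOXD cluster at chr2:176150303-176150412 on the plus strand, within an intron of HOXD3 and 810 bases before HOXD4. MIR196A1 was at chr17:48632490-48632559 on the minus strand, within an intron of HOXB7. MIR196A2 was at chr12:53991738-53991847 on the plus strand, within an intron of HOXC6 and between HOXC10 and HOXC9. Both MIR196A genes give the same mature miR-196a-5p, so the counts cannot be assigned to the HOXB or the HOXC locus. MIR196B lay in the HOXA cluster at chr7:27169480-27169563 on the minus strand, within an exon of HOXA9 and an exon of the antisense gene HOXA10-AS, 1028 bases from HOXA10.

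The libraries held 1296853 to 2955078 miRNA counts, 609 names at most in HGC27 and 361 at most in AGS. The authors' score was tags per 1000000 rounded to whole numbers, and its recovered divisor was larger than the table total in each library, the totals being 35.7% to 50.0% of it. In AGS, miR-372-3p alone took 80.8% of the counts with the negative probe and 37.5% with the positive probe, and its part in the differences below was not tested beyond leaving it out of the totals. Over entries with at least 10 counts in a pair of libraries, the median log2 ratio of HGC27 to AGS was 2.81 with the negative probe and 2.46 with the positive probe. Line differences are therefore given beside these medians. Markers of epithelial cells were listed in both lines, miR-141-3p being at 0 in 3 of the 4 libraries. With the negative and the positive probe they summed to scores of 652 and 357 in HGC27 and of 8296 and 750 in AGS. The epithelial sums were thus higher in AGS with either probe. The 4 stromal miRNAs summed to scores of 3331 and 3359 in HGC27 and of 11 and 38 in AGS, so they moved between the lines in the direction of miR-10b-5p and miR-196, and their part was not tested. The 3 gut epithelium miRNAs summed to scores of 124 to 226, miR-215-5p being at 0 throughout. The 3 red blood cell markers summed to scores of 1 to 6, miR-451a being at 0 throughout.

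**Figure D1:**
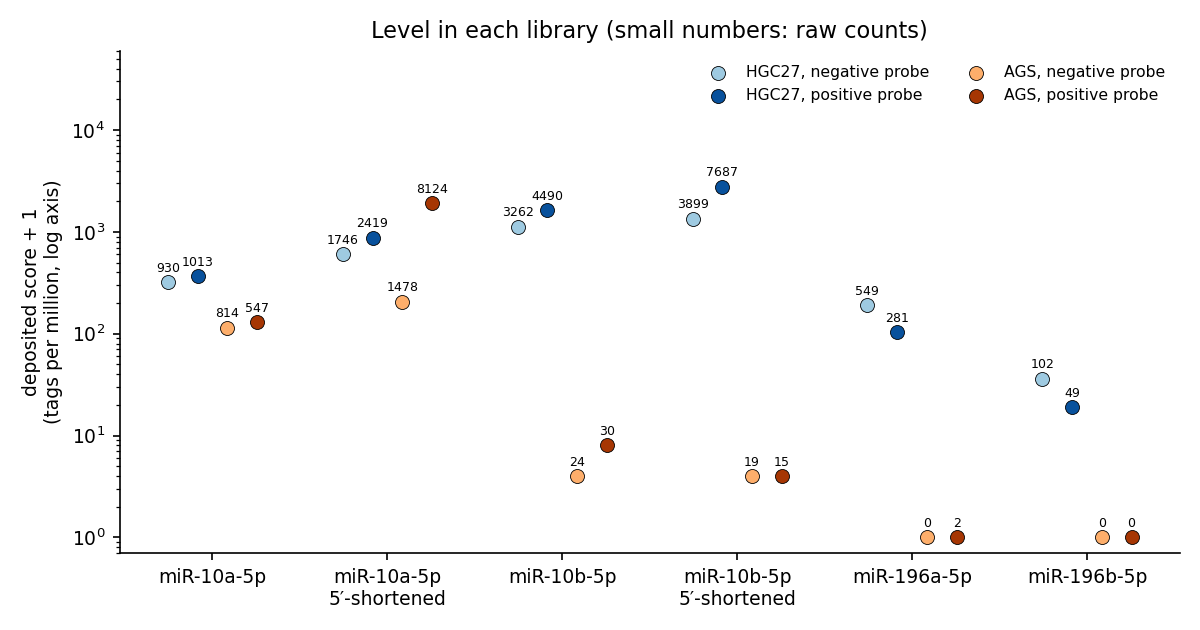
Deposited score + 1 of the 4 miRNAs and the 2 shortened miR-10 entries in each library on a log axis, 1 point per library, with the raw count above each point. miR-10a-5p stayed above 100 in all 4 libraries, whereas miR-10b-5p and both miR-196 forms were at a score of 7 or lower in AGS.

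miR-10a-5p was the only member with a score above 7 in both lines. Its score was 320 with the negative probe and 367 with the positive probe in HGC27, and 113 and 128 in AGS. These scores rest on 930, 1013, 814 and 547 counts in the same order. It ranked 65th of 574 and 60th of 609 listed miRNAs in HGC27 and 43rd of 342 and 38th of 361 in AGS.

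miR-10b-5p, the HOXD paralogue, was abundant in HGC27 and low in AGS. Its score was 1122 with the negative probe and 1625 with the positive probe in HGC27, from 3262 and 4490 counts. In AGS its score was 3 and 7, from 24 and 30 counts. The groups of the lines did not overlap, and its rank went from 40th and 31st in HGC27 to 134th and 118th in AGS.

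miR-196a-5p had 549 counts with the negative probe and 281 with the positive probe in HGC27, scores of 189 and 102. In AGS it was blank with the negative probe and had 2 counts, a score of 0, with the positive probe. miR-196b-5p had 102 and 49 counts in HGC27, scores of 35 and 18, and was blank in both AGS libraries. A blank was taken as 0 counts, and because the lowest count listed anywhere was 2, a single tag may stand behind a blank. A count of 0 allowed a share of up to 0.000102% of the AGS negative probe library and 0.000196% of the AGS positive probe library, so the miR-196 forms in AGS were not detected or at the limit of depth and cannot be called absent.

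The order of levels in HGC27 was miR-10b-5p, miR-10a-5p, miR-196a-5p and miR-196b-5p with either probe, and the 95% intervals of neighbours did not overlap. In AGS miR-10a-5p stood first and miR-10b-5p second, again with separate intervals. miR-196a-5p at 0 and 2 counts was not distinguished from miR-196b-5p at 0. All are 22 or 23 bases long. Together the 4 miRNAs made up 0.333% and 0.450% of the HGC27 counts with the negative and the positive probe and 0.0284% and 0.0379% of the AGS counts.

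Opposite arms of the hairpins were nearly unlisted. Of the 3p arms, miR-10b-3p was in the table, with 6 and 2 counts in HGC27 against 3262 and 4490 of its 5p arm, and blanks in AGS. The names miR-10a-3p, miR-196a-3p and miR-196b-3p were not in the table and count as not detected.

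Whether the balance between paralogues differed between the lines can be read within each library, where no scaling enters. In HGC27, miR-10b-5p made up 77.8% (exact 95% CI 76.5 to 79.1) of the miR-10a-5p and miR-10b-5p counts with the negative probe and 81.6% (95% CI 80.5 to 82.6) with the positive probe. The AGS values were 2.86% (95% CI 1.84 to 4.23) with the negative and 5.20% (95% CI 3.54 to 7.34) with the positive probe. The HOXD paralogue thus held most of the miR-10 counts in HGC27 and the HOXB paralogue in AGS.

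The odds of miR-10b-5p against miR-10a-5p were 119-fold higher in HGC27 than in AGS with the negative probe and 80.8-fold higher with the positive probe. In Fisher's exact test (two-sided, Benjamini-Hochberg over the 6 of 8 planned paralogue comparisons that had counts) the adjusted p was 1.78e-312 with the positive probe and below the smallest number the software holds with the negative probe. Between probes the balance moved far less. The odds of miR-10b-5p were 1.26-fold higher with the positive probe in HGC27 (Fisher's exact test, adjusted p = 9.07e-06) and 1.86-fold higher in AGS (adjusted p = 0.0499), the latter resting on 24 and 30 miR-10b-5p counts.

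The shortened entries gave the same order of paralogues. Of the counts of the 2 shortened entries, the miR-10b form took 69.1% (95% CI 67.8 to 70.3) with the negative and 76.1% (95% CI 75.2 to 76.9) with the positive probe in HGC27. In AGS it took 1.27% (95% CI 0.766 to 1.97) and 0.184% (95% CI 0.103 to 0.304). With annotated and shortened counts added, the miR-10b share was 72.8% and 78.0% in HGC27 and 1.84% and 0.516% in AGS, so in AGS the miR-10b share was higher with the positive probe among annotated entries and lower once the shortened entries were added.

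The miR-196 paralogues were both measured in HGC27, where miR-196a-5p was the more abundant. miR-196b-5p made up 15.7% (95% CI 13.0 to 18.7) of the miR-196 counts with the negative probe and 14.8% (95% CI 11.2 to 19.2) with the positive probe. No difference was detectable at this depth (Fisher's exact test, odds ratio 0.939, adjusted p = 0.935). In AGS, with 0 and 2 counts, the share could not be given.

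**Figure D2:**
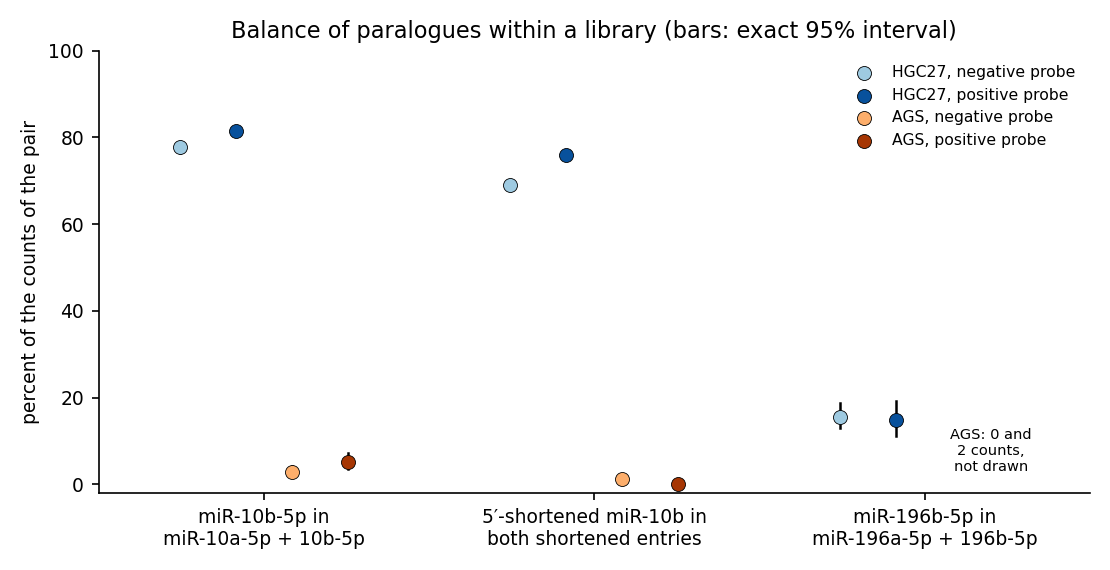
Share of a paralogue in the counts of its pair (y axis, percent) in each library, with exact 95% intervals where these are wider than the point. miR-10b-5p held 77.8% and 81.6% of its pair in HGC27 against 2.86% and 5.20% in AGS, and miR-196b-5p held 15.7% and 14.8% in HGC27.

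Between the probes in HGC27, the miR-10 forms were higher and the miR-196 forms lower with the positive probe. The ratio of score + 1, positive over negative, was 1.15 for miR-10a-5p (exact 95% interval of the fold 1.05 to 1.25) and 1.45 for miR-10b-5p (1.38 to 1.52). It was 0.542 for miR-196a-5p (0.465 to 0.623) and 0.528 for miR-196b-5p (0.352 to 0.717). On the log2 scale these ratios were 0.20, 0.53, -0.88 and -0.92, against a median of -0.02 over 398 entries.

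No member reached a ratio of 2 or fell to 0.5 in HGC27, where 37.5% of the 755 entries with a count reached 2 and 34% fell to 0.5 or lower. Fisher's exact test called all 4 members, 2 higher, where 21.6% of entries were called higher, and 2 lower, where 20.5% were. The adjusted p was 5.36e-05 for miR-10a-5p, 2.93e-79 for miR-10b-5p, 5.67e-14 for miR-196a-5p and 0.00113 for miR-196b-5p. These directions were the same under each of 8 other scalings, pseudocounts and groupings of entries, in which miR-10a-5p spanned a log2 ratio of 0.12 to 0.43 and miR-10b-5p 0.46 to 0.84. miR-196a-5p spanned -0.96 to -0.70 and miR-196b-5p -1.04 to -0.68.

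In AGS the scaling decided the direction for miR-10a-5p. Its ratio was 1.13 (95% interval 1.01 to 1.26), a log2 ratio of 0.18 below the median of 0.42 over 244 entries, and its counts were 547 with the positive and 814 with the negative probe. It had the opposite sign under 4 of 8 alternatives, over a log2 range of -1.32 to 2.67. Fisher's exact test called it higher (adjusted p = 9.27e-06), a call made for 36.6% of the 459 entries with a count in AGS.

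miR-10b-5p in AGS had a ratio of 2.00 (95% interval 1.19 to 3.75, Fisher's exact test, adjusted p = 0.00349), on 24 and 30 counts. It was the 1 member at a ratio of at least 2 there, where 39.4% of entries were, and no member was at 0.5 or lower, where 22.7% were. Its place at 2 rested on the rounding of the scores. With the unrounded scores of 7.02 and 3.34, each plus 1, the ratio was below 2. The log2 ratio of 1.00 became -0.42 when miR-372-3p was left out of the totals, and stayed above the median of all entries under each of 8 alternatives. The miR-196 forms in AGS had too few counts for a ratio, and the 2 counts of miR-196a-5p with the positive probe did not differ from a blank (Fisher's exact test, adjusted p = 0.165).

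The shortened miR-10a entry gave the largest probe difference of the miR-10 entries. Its score was 601 and 875 in HGC27 and 206 and 1901 in AGS, from 1746, 2419, 1478 and 8124 counts. The AGS positive probe library stood apart, and in it the entry ranked 15th of 361. Its ratio was 9.19 in AGS (95% interval 8.74 to 9.77) and 1.46 in HGC27 (1.37 to 1.55). The ratio was above 1 in both lines under each of 7 alternatives, with a log2 range of 1.71 to 3.41 in AGS. The difference between the lines was larger than counting error but has no replicate check.

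The shortened miR-10b entry was higher with the positive probe in HGC27. Its score went from 1341 to 2782 there, on 3899 and 7687 counts, a ratio of 2.07 (95% interval 2.00 to 2.16). In AGS it had 19 and 15 counts and a score of 3 with both probes, with a ratio of 1.00 (95% interval 0.627 to 2.75, Fisher's exact test, adjusted p = 0.367).

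**Figure D3:**
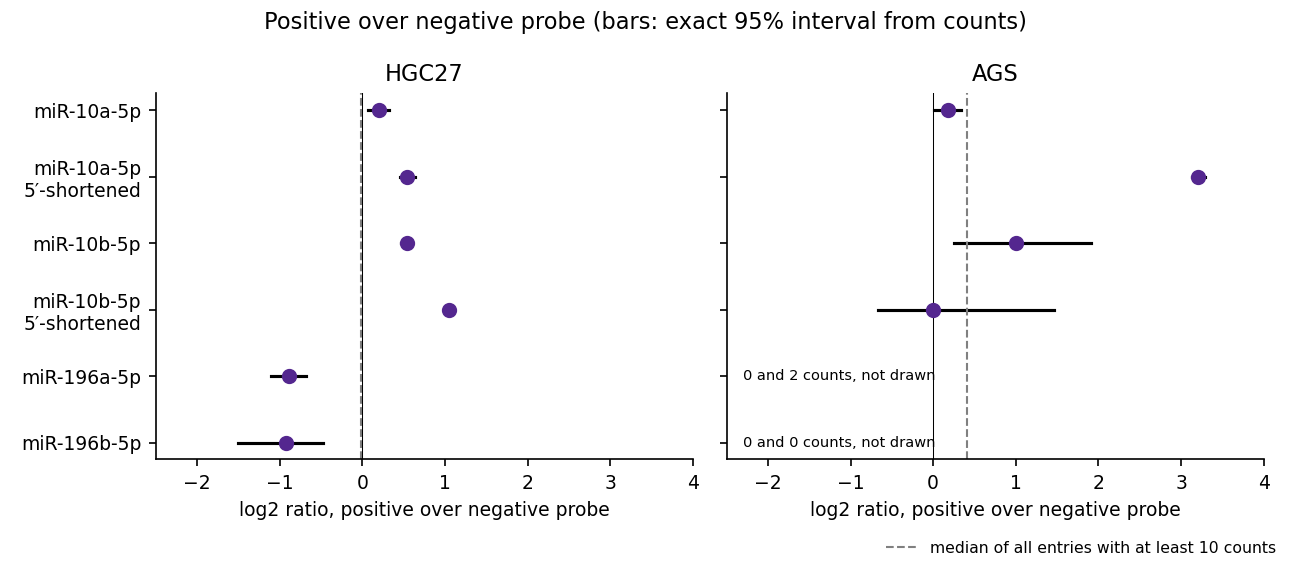
Log2 ratio of score + 1, positive over negative probe, for the 4 miRNAs and the 2 shortened entries in HGC27 (left) and AGS (right), with exact 95% intervals from the counts and the median of all entries as a dashed line. In HGC27 the miR-10 entries lie right of 0 and the miR-196 forms left of it, and in AGS the shortened miR-10a entry lies at 3.20.

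Because annotated and shortened forms of a miRNA share a library, their balance is free of scaling too. The shortened entry held 65.2% (95% CI 63.4 to 67.1) and 70.5% (95% CI 68.9 to 72.0) of the miR-10a counts in HGC27. In AGS it held 64.5% (95% CI 62.5 to 66.4) with the negative probe and 93.7% (95% CI 93.2 to 94.2) with the positive probe. With the negative probe no difference between the lines was detectable (Fisher's exact test, log2 odds ratio of HGC27 to AGS 0.05, adjusted p = 0.592). With the positive probe the log2 odds ratio was -2.64 (Fisher's exact test, adjusted p = 7.03e-231).

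The log2 odds ratio of the shortened miR-10a entry, positive against negative probe, was 3.03 in AGS (Fisher's exact test, adjusted p = 2.45e-253) and 0.35 in HGC27 (adjusted p = 2.75e-05). The shortened share of miR-10b went from 54.4% (95% CI 53.3 to 55.6) to 63.1% (95% CI 62.3 to 64.0) in HGC27 (adjusted p = 5.04e-32, Fisher's exact test). In AGS it went from 44.2% (95% CI 29.1 to 60.1) to 33.3% (95% CI 20.0 to 49.0) on 43 and 45 counts, a difference not detectable at this depth (adjusted p = 0.436, Fisher's exact test). These shares were examined after the values had been seen, and p-values were adjusted over their 8 comparisons.

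The table held 28 pairs of distinct sequences in which a predicted sequence contained, or lay within, that of an annotated miRNA, and 3 of these were shorter at the 5′ end, those of miR-10a-5p, miR-10b-5p and miR-203a-3p. In AGS, 7 pairs had at least 10 counts in both libraries and a count of the predicted form in at least 1. The predicted share was higher with the positive probe in 1 of these 7, the miR-10a pair, by 29.2 percentage points. In the other 6 it was lower, with changes from -16.6 points for miR-203a-3p, which has a shortened form of the same kind, to -0.322 points for miR-589-5p. The miR-10b pair changed by -10.9 points on 43 and 45 counts. The pairs of miR-320a-3p and miR-484 also had at least 10 counts in both AGS libraries. Their predicted form had 0 counts there, so their share was 0% with both probes and they are not among the 7. In HGC27 the predicted share was higher with the positive probe in 9 of 16 pairs, by 5.24 points for miR-10a and 8.68 points for miR-10b, within a range of -19.1 to 19.5 points over all pairs. These pairs are given as a description without a test.

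**Figure D4:**
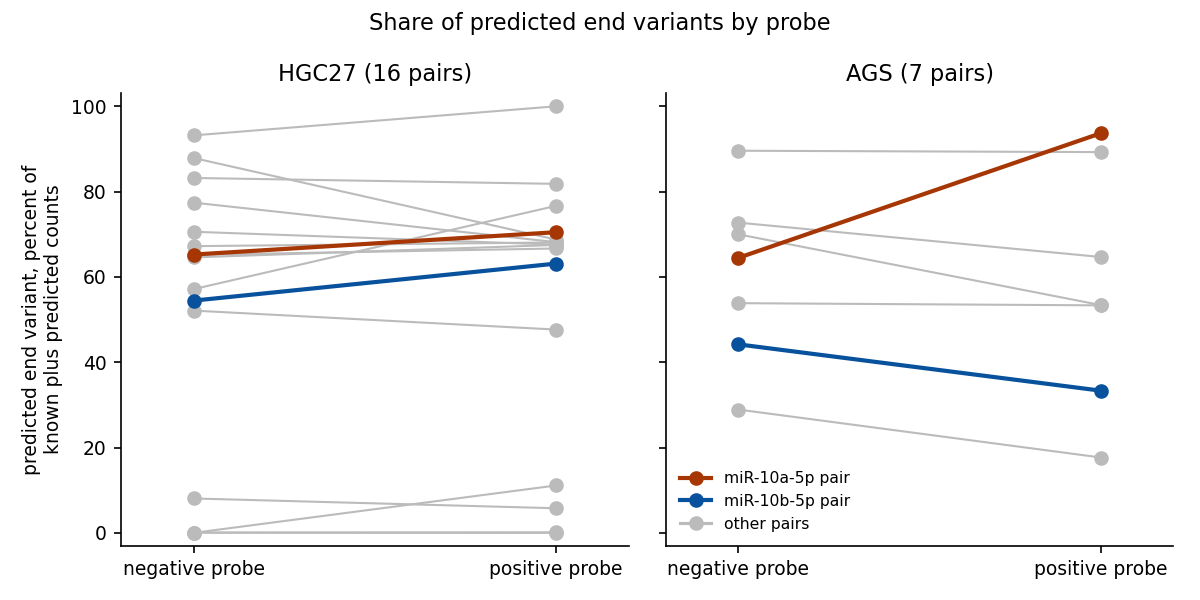
Share of the predicted form in the summed counts of predicted and annotated forms (y axis, percent) with the negative and the positive probe. Each line is 1 pair with at least 10 counts in both libraries and a count of the predicted form in at least 1, 16 pairs in HGC27 and 7 in AGS. In AGS the miR-10a pair rose from 64.5% to 93.7%, and each of the other 6 pairs drawn was lower with the positive probe.

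Between the lines, all 4 members had a higher score in HGC27 than in AGS, but most of the table did too. With the negative probe the ratio of HGC27 to AGS was at least 2 for all 4 members and for 86% of 615 entries, and with the positive probe for all 4 and for 75.3% of 684. The lowest HGC27 score was above the highest AGS score for all 4 members and for 40.2% of 818 entries. These counts do not set the members apart from the table.

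The sizes differed widely among the members. The ratio of miR-10a-5p was 2.82 (95% interval 2.57 to 3.10) with the negative probe and 2.85 (2.58 to 3.18) with the positive probe. Its log2 ratios of 1.49 and 1.51 lay 1.31 and 0.95 below the medians of all entries, but 0.27 and 0.60 above them with a pseudocount of 10, and TMM and DESeq2 scaling turned them to -1.54 and -1.60 with the negative probe and to -0.73 and -1.04 with the positive probe. miR-10a-5p therefore had no direction between the lines that held under each scaling.

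miR-10b-5p was 281-fold higher in HGC27 with the negative probe (95% interval 225 to 525) and 203-fold higher with the positive probe (162 to 343). The log2 ratios of miR-10b-5p, 8.13 and 7.67, were 5.33 and 5.21 above the medians, and under the alternatives they stayed at 5.26 or higher. Taking 3 counts as the floor of a blank library, miR-196a-5p was 452-fold higher in HGC27 with the negative probe and the deposited divisors. This bound was lower with each of the 4 other scalings, 52.6-fold at the lowest. It leaves out counting error in the HGC27 count, and the exact 95% interval of the fold began at 366. With the positive probe miR-196a-5p had 281 against 2 counts, a fold with a 95% interval of 59.6 to 1803. For miR-196b-5p the bound from the same floor was 84.0-fold with the negative probe (9.78-fold at the lowest with the other scalings). With the positive probe it was 25.3-fold (4.28-fold at the lowest). The exact 95% intervals of the miR-196b-5p folds began at 67.1 and 19.8. The size of the bound thus depended on the scaling for both miR-196 forms, while the direction was the same.

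**Figure D5:**
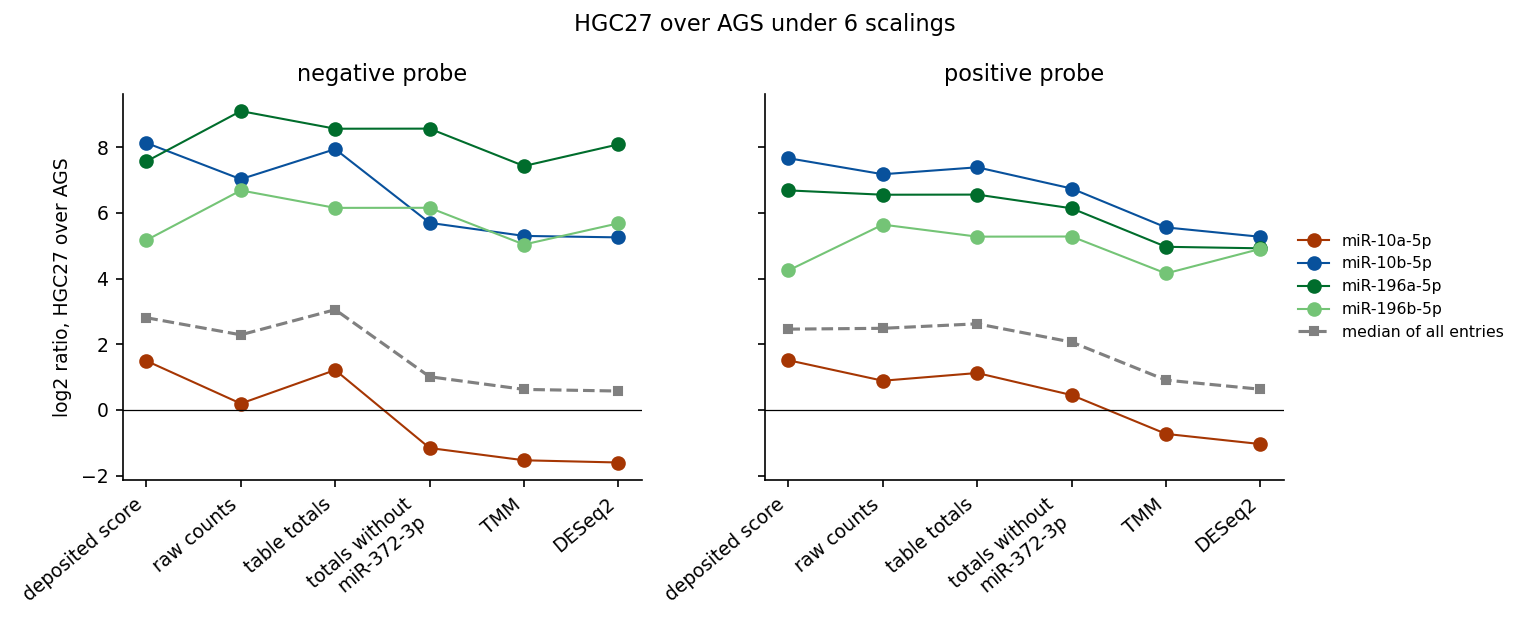
Log2 ratio of HGC27 to AGS for the 4 miRNAs under 6 scalings, with the negative (left) and positive probe (right), and the median of entries with at least 10 counts as a dashed line. miR-10a-5p lies below that median under all 6 and crosses 0, while the other members lie above it, the miR-196 values being set by the pseudocount because AGS had 0 to 2 counts.

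One edgeR model over the 4 libraries, with line and probe as terms, let the other factor stand in for replicates, since neither had any. For the line it called 3 of the 4 members higher in HGC27, beside 22.1% of the 271 entries tested. The log2 fold change of miR-10b-5p was 5.24 ± 1.34 (SE, quasi-likelihood test, adjusted p = 0.000993, range over the alternatives 2.54e-08 to 0.1004). That of miR-196a-5p was 6.69 ± 1.53 (adjusted p = 0.000299, range 0.000216 to 0.110). miR-196b-5p was also called (adjusted p = 0.000905, range 0.000323 to 0.147), but its fitted fold depends on the prior count because both AGS libraries were blank. Both miR-196 forms passed the low count filter through HGC27 alone. A call of either could thus only be toward HGC27, and these calls and their p-values are no support for a line difference. Of the called members, only miR-10b-5p had counts in both AGS libraries. With no filter, over 843 entries, none of the 3 calls held.

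For miR-10a-5p the same model gave -1.37 ± 1.15 (SE, edgeR adjusted p = 0.423) between HGC27 and AGS, and for its shortened entry -2.67 ± 1.35 (adjusted p = 0.127). The latter was called in the DESeq2 Wald test (-2.81, adjusted p = 0.00699), and edgeR with library totals in place of TMM gave -0.12 (adjusted p = 0.914). The shortened miR-10b entry was higher in HGC27, with 6.42 ± 1.47 (adjusted p = 0.000299). Its 19 and 15 AGS counts would not have passed the low count filter without HGC27, so this call is no support for a line difference. With no filter the entry was not called (edgeR adjusted p = 0.1004).

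For the probe, edgeR called none of the 4 members, beside 7.01% of the entries tested, and none of the 4 had an unadjusted p under 0.05, where 20.3% of the entries did. DESeq2 called none of them either, among 49 calls over the 271 entries. limma-voom made no call for any entry, so it says nothing of the members, and 72 entries had an unadjusted p under 0.05 in it. The log2 fold change of positive over negative probe was -0.22 ± 1.13 for miR-10a-5p (SE, edgeR adjusted p = 0.923) and 0.41 ± 1.14 for miR-10b-5p (adjusted p = 0.885). It was -0.05 ± 1.53 for miR-196a-5p (adjusted p = 0.993) and -0.79 ± 1.32 for miR-196b-5p (adjusted p = 0.773). With errors of this size, a probe difference of the kind seen within HGC27 could not be told from none over both lines.

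Among other miRNAs of the HOX clusters, miR-615-3p, encoded in an intron of HOXC5, had a score of 2398 with the negative and 1575 with the positive probe in HGC27, from 6970 and 4351 counts, and of 30 and 83 in AGS. Its HGC27 to AGS ratio was 77.4 with the negative and 18.8 with the positive probe, between those of miR-10a-5p and miR-10b-5p. With the positive probe its score was lower in HGC27 (ratio 0.657, 95% interval 0.632 to 0.682), as were those of miR-196a-5p and miR-196b-5p. In AGS its ratio was 2.71 (2.34 to 3.30).

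Relatives by sequence had probe ratios of their own. miR-10a-5p shared an 11 base run, in capitals here, with miR-100-5p.
miR-10a-5p: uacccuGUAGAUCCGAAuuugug
miR-100-5p: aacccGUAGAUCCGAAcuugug
The 3 relatives miR-99a-5p, miR-99b-5p and miR-100-5p had a median log2 probe ratio of -1.75 in HGC27, all at 0.5 or lower, where miR-10a-5p and miR-10b-5p had 0.20 and 0.53. In AGS they ranged from -2.59 to 1.00. The log2 ratio of HGC27 to AGS with the negative and the positive probe was 10.56 and 8.40 for miR-99a-5p. It was 7.02 and 4.58 for miR-100-5p and 0.89 and 1.23 for miR-99b-5p. A large excess in HGC27 was therefore not particular to miR-10b-5p, at 8.13 and 7.67.

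The miR-196 seed is also found in let-7, shifted by 1 base, so it is not the let-7 seed.
miR-196a-5p: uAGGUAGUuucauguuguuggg
let-7a-5p: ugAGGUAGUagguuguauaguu
All 9 let-7 members had a ratio of at least 2 with the positive probe in both lines, with median log2 ratios of 1.92 in HGC27 and 4.51 in AGS. miR-196a-5p and miR-196b-5p, which carry the shared 7 bases at positions 2 to 8 in place of 3 to 9, had -0.88 and -0.92 in HGC27.

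Seed matches were searched as the reverse complement of bases 2 to 8 in the annotated FN1 3′-UTR of 1101 bases and in its reverse complement. None of the 4 members and neither shortened entry had such a match on either strand. Of the 570 annotated miRNAs in the table, 7.37% had one in the 3′-UTR and 7.72% in its reverse complement. With bases 2 to 7 alone, miR-10a-5p and miR-10b-5p had 1 match in the reverse complement. The windows say only that these letters were not there.

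By Euclidean distance of log2(score + 1) over the 4 libraries, after each miRNA was centred on its own mean, the entries most like miR-10b-5p among 360 annotated miRNAs were miR-218-5p (0.652), miR-199a-5p (0.675) and miR-9-5p (0.770), and miR-196a-5p was 7th. Those most like miR-196a-5p were miR-708-5p (0.199), miR-1299 (0.699) and miR-548ah-3p (1.09), and miR-598-3p (0.216) was nearest to miR-196b-5p. miR-10a-5p was nearest to miR-4421 and miR-6515-5p (both 0.205), which had at most 6 counts in any library, so that this likeness rests on the pseudocount. That holds for AGS in the neighbours of both miR-196 forms named above too, where these had scores of 0 or 1. The neighbours named for miR-10b-5p had AGS scores of 0 to 4, and miR-10b-5p had 3 and 7, so the pseudocount enters those distances as well. miR-10b-5p was 343rd of 360 in likeness to its paralogue miR-10a-5p.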

How the data were processed

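Small RNA libraries from pull-down material were sequenced by the authors, 1 for each of 2 probes in 2 lines. Raw counts of tags for each mature miRNA were deposited, with a score by the authors, tags per 1000000 rounded to whole numbers. The submitters' processing notes name cutadapt 1.9.3, Novoalign 3.02.12 and hg38. The miRNA database release is not given in the sources used here. The 901 rows were collapsed to 843 names, 570 annotated and 273 predicted, and blanks were taken as 0.

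Ratios used the deposited score with a pseudocount of 1 and were called at 2 or 0.5. The score was planned as continuous tags per 1000000. Folds carry exact 95% intervals from counts and recovered divisors, and shares carry Clopper-Pearson intervals. Fisher's exact tests were two-sided, each miRNA against all other counts, with Benjamini-Hochberg adjustment over all entries. Those tests thus scale by the table totals, whereas the ratios and fold intervals use the deposited scores and divisors. Raw counts were fitted in edgeR 4.0.16 (R 4.3.3, TMM, filterByExpr, quasi-likelihood, line and probe), with DESeq2 1.42.0 and limma 3.58.1 as alternatives. This left 1 residual degree of freedom. Scripts were tested on simulated data. The named miRNAs were the members, their arms, the fixed lists of relatives, miR-615, the nearest 3 by likeness and the predicted entries overlapping a member by at least 18 bases. The members and lists were chosen with earlier results of these data known.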

Additional observations from a re-analysis of the deposited data

Results flagged for a closer look

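miR-615-3p, from the HOXC cluster, moved in opposite directions with the probe in the lines, each line having 1 library per probe. Its log2 ratio of positive to negative probe was -0.61 in HGC27 and 1.44 in AGS. The difference between the lines was not tested. Without miR-372-3p in the library totals the AGS value was -0.03, while it stayed above the median of all AGS entries under each of 8 alternatives.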

How the results depend on the processing

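The labels give no replicate numbers to pair. The edgeR fit with the line as a term compares the probes within each line. Leaving out a library was possible only by leaving out a line or a probe, as values with no test. These values are log2 differences between the 2 libraries left, on TMM-scaled counts and without a fit. Positive over negative probe, the difference was 0.38 (without AGS) and -0.82 (without HGC27) for miR-10a-5p and -0.71 and 1.68 for miR-196a-5p. HGC27 over AGS, it was 4.88 (without the positive probe) and 5.52 (without the negative probe) for miR-10b-5p, 7.33 and 4.95 for miR-196a-5p and 4.94 and 4.17 for miR-196b-5p. Between probes in HGC27, 1 member fell to a ratio of 0.5 on raw counts. In AGS the members at a ratio of at least 2 were 2 with table totals as divisors and 0 with a pseudocount of 10 or a threshold of 4. Where 1 member was at 2, it was not always miR-10b-5p. It was miR-196a-5p, on 0 and 2 counts, with raw counts, TMM, DESeq2 and totals without miR-372-3p. It was miR-10a-5p with the shortened entries added and miR-10b-5p with a pseudocount of 0.1. Also in AGS, 1 member fell to 0.5 without miR-372-3p in the totals. Under that setting the AGS log2 ratios of miR-10b-5p and miR-615-3p were -0.42 and -0.029. Between lines, 1 member was at 0.5 or lower under TMM, DESeq2 and totals without miR-372-3p with the negative probe and 1 under DESeq2 with the positive probe. The log2 ratio of miR-10a-5p reversed to -1.54, -1.60 and -1.16 under these with the negative probe, and to -0.73 (TMM), -1.04 (DESeq2) and -0.71 (shortened entries added) with the positive probe. That of its shortened entry reversed to -1.49, -1.56 and -1.11 with the negative probe.

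The edgeR calls for the probe, 19 of 271, were 0 with library totals (52 at an unadjusted p under 0.05), no filter (66), at least 10 counts in every library (16), no line term (17) and limma-voom (72), 32 with DESeq2 size factors, 49 in DESeq2 and 1 with the shortened entries added (48 unadjusted), an alternative chosen after seeing the data. For the line, 81 calls became 169 with library totals, 0 with no filter (95 unadjusted) and 15 with at least 10 counts in every library, and the members called went from 3 to 0 (3 unadjusted) and to 1 of the 2 that passed. The causes were not tested. Of the other values, 231 neither moved nor took the opposite sign. Another 15, edgeR values with no call, changed sign, 98 moved, 4 lost and 3 gained a call. Some of the 231 still crossed the ratio threshold, among them miR-10b-5p between probes in AGS, at a log2 ratio of 1.00 and of 0.31 on raw counts. Depth limits miR-10b-5p and miR-196 in AGS, where they had 0 to 30 counts.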
